A study of Mus musculus with 54 samples.

Results

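Hspa1a, Hspa1b, Hsph1, Dnajb1, Hsp90aa1, Hspb1, Hspa8 and Bag3 encode the core of the heat shock chaperone machinery of the mouse cytosol. The 8 genes were taken by symbol from the 4 deposited tables of TPM (a gene's share of a library's transcripts, corrected for gene length). All 8 were listed in each table, of 43615 gene symbols listed in all, and all 8 passed the filter on low values in each table. The question of the study was what the branched-chain amino acids (BCAA) and the keto acids made from them (BCKA) do in lung fibrosis. Poly(A) RNA was measured in 54 libraries of 17 groups, 24 from lung fibroblast cultures and 30 from whole lungs. Primary fibroblasts came from the lungs of mice aged 6 to 8 weeks. They were kept for 24 h in complete medium, in medium without BCAA, or in the BCAA-free medium with BCAA or BCKA added back, and then received PBS or transforming growth factor β1 (TGF-β1, 20 ng/mL) for 48 h. This gave 8 groups of 3 libraries.

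The lungs came from male C57BL/6 mice of 10 to 12 weeks that received PBS or bleomycin, a drug that injures the lung and leads to scarring, in 3 experiments. In the water experiment (3 libraries per group), groups had PBS, 1.25 mg/kg of bleomycin, or the same dose after 7 days of 3 mM BCAA in the drinking water, and lungs were taken on day 14. In the diet experiment (4 libraries per group), groups had PBS, 1.25 mg/kg of bleomycin on normal diet, or the same dose and, starting on day 7, 14 days of food lacking BCAA, with lungs taken on day 21. In the BT2 experiment (3 libraries per group), groups had PBS, 3.5 mg/kg of bleomycin with 10% DMSO, or the same dose with 20 mg/kg of BT2, which blocks the kinase of the BCKA dehydrogenase complex and so favours BCKA breakdown. Injections were given daily from day 3 for 11 days, and lungs were taken on day 14. The PBS group of the BT2 experiment is titled with DMSO, while the design text gives it a normal diet only, so whether it had the vehicle is not clear. The cultures are labelled wild type, and no transgene or deletion is labelled in any group. Nothing in the labels says that the libraries of a culture group came from separate isolations, so p-values measure the spread between these libraries, which may be technical.

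Heat shock proteins hold unfolded proteins, help them fold and hand over those that cannot be rescued. HSP70 proteins bind short exposed stretches of a client in a cycle of ATP use that J-domain proteins start and nucleotide exchange factors end, HSP90 acts later on kinases, steroid receptors and other clients, and small heat shock proteins keep unfolded clients from clumping. Under heat or other protein damage the heat shock factor HSF1 binds repeats of a short element upstream of these genes and their transcription rises within minutes, whereas constitutive members are also abundant without stress. In the lung they are expressed in most cell types, and fibroblasts that secrete collagen depend in addition on chaperones of the endoplasmic reticulum.

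The heat shock element is built of alternating 3-base units, GAA and TTC, each followed by 2 free bases. RefSeq promoter windows on GRCm38.p6, of which the 250 bases before the start site were used, were given for 6 of the 8 genes; Hspa8 and Hsp90aa1 had no entry. A pair of facing units, GAANNTTC or TTCNNGAA, was searched on both strands (each reads the same on both) and stands in 12.8% of all 32851 such windows. Counted by gene, the pair stands in 14.5% of all 27025 genes with such windows. It was found in 4 of the 6 genes, Hspa1a, Hspa1b, Hspb1 and Hsph1, and not in Dnajb1 or Bag3. A run of 3 units is the same pair followed after 2 free bases by another GAA or TTC in turn. It stands in 0.466% of all windows and 0.514% of genes, and was found in none of the 6. In Hspa1a and Hspa1b the match GAAGATTC begins 104 bases before the start, in Hspb1 matches begin 117 (GAAGTTTC) and 97 (GAACCTTC) bases before it, and in Hsph1 the match TTCTCGAA begins 33 bases before its first listed start site. The upstream windows of the stress-inducible HSP70 pair and of the small heat shock protein gene are shown because the pair had the widest range between lung groups and Hspb1 the largest change of its TGF-β1 response; capitals mark the paired units. Hspa1a and Hspa1b lie on the minus strand of chromosome 17 and Hspb1 on the plus strand of chromosome 5, and each window ends at the base before the start site.
Hspa1a, chr17:34972157-34972406: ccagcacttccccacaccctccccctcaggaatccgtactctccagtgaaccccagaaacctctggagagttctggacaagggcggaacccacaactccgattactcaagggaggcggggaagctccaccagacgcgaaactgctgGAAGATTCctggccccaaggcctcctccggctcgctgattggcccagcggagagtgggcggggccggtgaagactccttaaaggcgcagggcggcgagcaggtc
Hspa1b, chr17:34959239-34959488: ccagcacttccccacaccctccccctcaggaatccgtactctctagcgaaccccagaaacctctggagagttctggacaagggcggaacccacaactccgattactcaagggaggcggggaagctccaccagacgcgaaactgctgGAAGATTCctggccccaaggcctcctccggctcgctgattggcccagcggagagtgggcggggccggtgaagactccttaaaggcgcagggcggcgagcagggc
Hspb1, chr5:135887669-135887918: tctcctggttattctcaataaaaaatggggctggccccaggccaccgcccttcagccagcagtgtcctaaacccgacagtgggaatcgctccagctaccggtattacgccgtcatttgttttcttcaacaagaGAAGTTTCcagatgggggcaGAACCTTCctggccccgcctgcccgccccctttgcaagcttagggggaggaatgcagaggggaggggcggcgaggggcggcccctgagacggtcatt
The windows of Hspa1a and Hspa1b differ at 3 of 250 positions (98.8% identical). A match is a description of letters and was not tested as a binding site.

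The coding copies are also close. Of all stretches of 100 bases in the Hspa1a transcript (2967 bases in the GENCODE M21 annotation), 47.07% occur unchanged in the Hspa1b transcript (2803 bases), and 49.93% of those of Hspa1b occur in Hspa1a. Reads from the shared stretches cannot be assigned to either gene, so single values of Hspa1a and Hspa1b are uncertain, and the sum of their TPM is given beside them where a result turns on them.

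Some libraries stood apart. In the cultures, replicate 1 of the BCAA-free TGF-β1 group differed from the other two in Hspa8, at 905, 2446 and 2493 TPM in replicates 1 to 3, and in Dnajb1, at 20.03, 46.7 and 45.97 TPM. In the diet experiment, the 4 PBS libraries had summed endothelial markers (Pecam1, Cdh5, Vwf, Cldn5) of 99.2 to 184 TPM, against 1474 to 2049 with bleomycin and 958 to 1386 in the PBS lungs of the water experiment, so the labelled whole lung was poor in these defining markers. Replicate 3 of the BCAA-free diet group listed 17554 genes above 0, against 24329 to 25632 in the other 3 libraries of that group. Cultures held fibroblast markers (Col1a1, Col1a2, Pdgfra, Dcn, Lum) summing to 10234 to 56050 TPM. Within the BCAA-free TGF-β1 group alone these sums ran from 10931.5 to 56049.7 TPM, against 37698.8 to 42094.5 in complete medium with TGF-β1. Markers of macrophages, endothelium, alveolar epithelium, airway epithelium and heart muscle each summed to at most 8.503 TPM in any culture library. Smooth muscle and pericyte markers summed to 435 to 984 TPM in the cultures. Mesothelium markers summed to 11.3 to 65.5 TPM, lowest in the BCAA-free TGF-β1 group and highest in complete medium with PBS. The labels' extraction protocol mentions heart tissue while each tissue sample is labelled as lung; cardiac muscle markers are given beside the lung results. In whole lungs, fewer cells of a type and less RNA per cell cannot be told apart. TPM keep no depth, so the counting error of each value is unknown. Changes are given as differences on the log2(TPM + 1) scale, with limma's adjusted p over all genes tested in the table, and a gene was called changed at an adjusted p under 0.05.

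Without TGF-β1, fibroblasts held Hspa8 at the highest level of the 8, and limma called no member for a change of medium. Over the 12 PBS libraries, Hspa8, the constitutive HSP70 of the cytosol, ranged from 1024 to 1217 TPM, Hsp90aa1, the stress-inducible HSP90, from 347 to 415, Hspb1, the small heat shock protein HSP27, from 166 to 291, and Bag3, a nucleotide exchange factor that links HSP70 to autophagy, from 99.7 to 120.0. Hsph1, the HSP110 exchange factor, ranged from 41.4 to 51.5 TPM, Dnajb1, the J-domain protein HSP40 that starts the HSP70 cycle, from 38.5 to 45.5, and the stress-inducible HSP70 genes Hspa1b and Hspa1a from 34.9 to 46.8 and from 14.7 to 19.2. Limma called none of the 8 for removal of BCAA, where 0.91% of all genes were called, 0.573% higher and 0.336% lower. Without overlap, 3 of the 8 were lower (Hspa1a, Hspa1b and Bag3) and 1 higher (Hspb1), against 11.2% and 7.34% of all genes. Of the 8, 1 had an unadjusted p under 0.05 (Bag3, -0.20, SE 0.08, adjusted p = 0.52). The 95% interval of the difference was -0.35 to 0.58 for Hspa8, -0.10 to 0.23 for Hsp90aa1 and -0.56 to 0.01 for Hspa1b. With array weights, which let libraries differ in weight, 3 of the 8 were called (Hspa1b, Hspb1 and Bag3, at -0.27, 0.28 and -0.21).

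In PBS cells, limma also called none of the 8 for BCAA added back to the BCAA-free medium. Of all genes, 0.26% were called, 0.122% higher and 0.138% lower. Without overlap, 4 of the 8 were higher (Hspa1a, Hspa1b, Dnajb1 and Bag3) and 0 lower, against 10.5% and 5.33% of all genes. Of the 8, 1 had an unadjusted p under 0.05, and 2 were called with array weights (Hspa1b and Bag3, at 0.23 and 0.20). For BCKA added back limma called none of the 8 either, where 0.665% of all genes were called, 0.397% higher and 0.268% lower. Without overlap, 2 of the 8 were higher (Hspb1 and Bag3) and 0 lower, against 8.93% and 4.66% of all genes. None (0) had an unadjusted p under 0.05, and 1 was called with array weights (Bag3, 0.16).

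**Figure D1:**
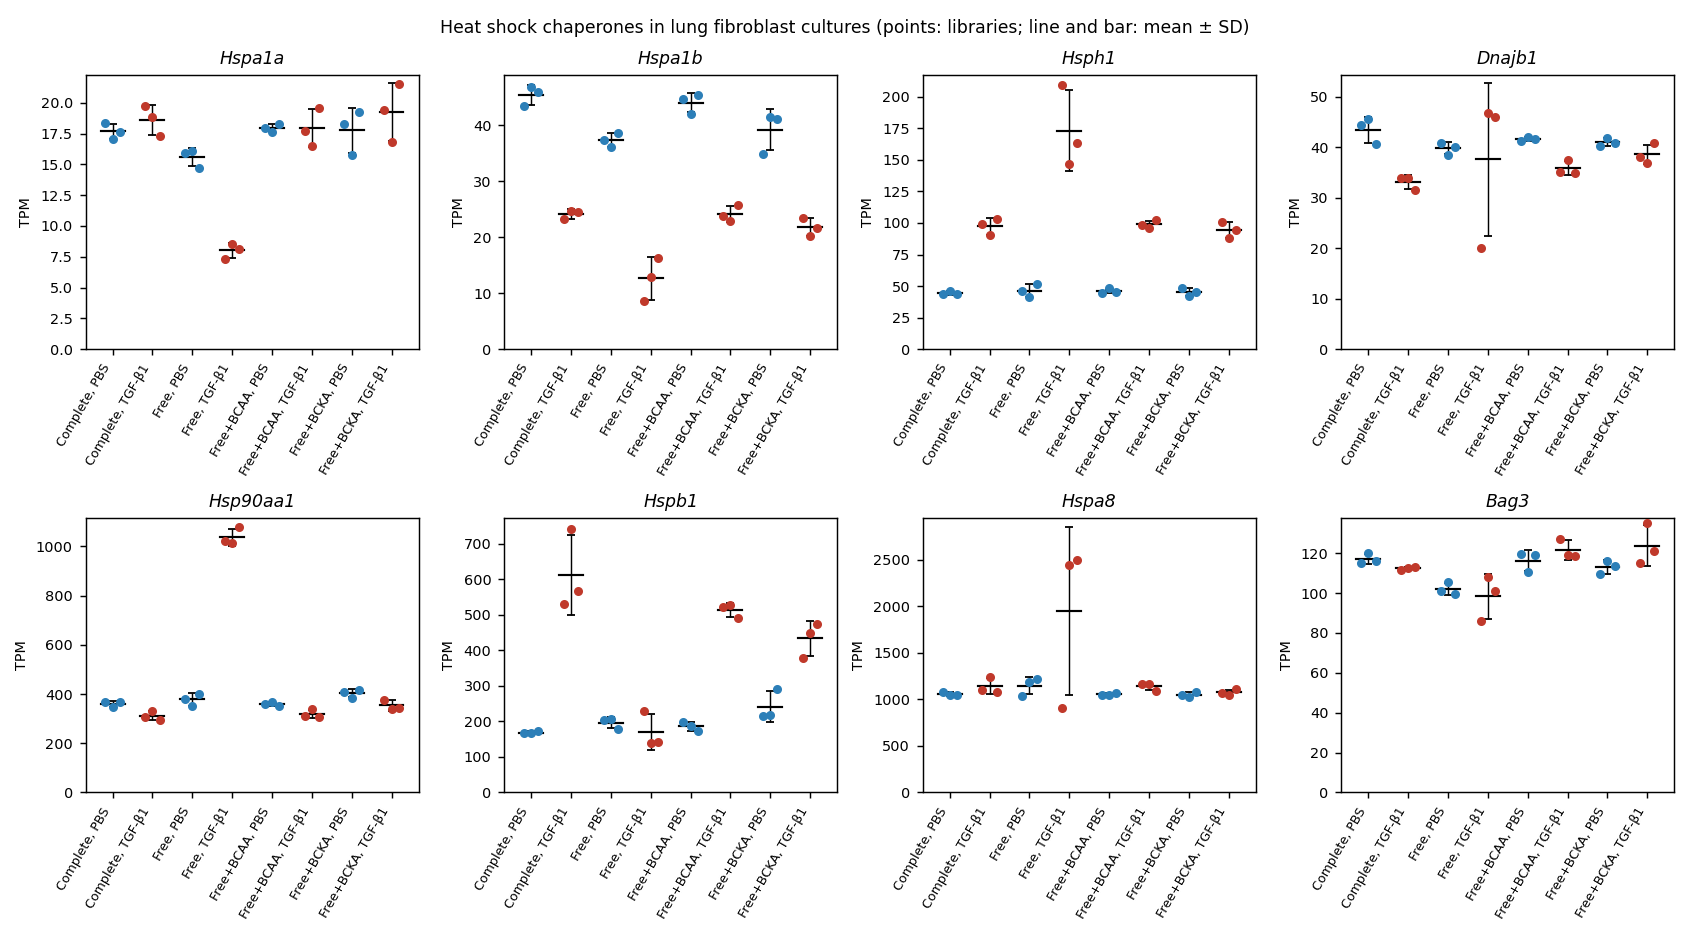
TPM of the 8 genes (linear axes from 0) in the 8 fibroblast groups, with 1 point per library, blue for PBS and red for TGF-β1, and the group mean ± SD as a line and bar. Hsp90aa1 stood at 1013 to 1076 TPM in the BCAA-free TGF-β1 group against 296 to 415 in the other 21 libraries, and replicate 1 of that group lay apart in Hspa8 and Dnajb1.

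In complete medium, TGF-β1 moved members of the family in opposite directions. Hspb1 stood at 166, 166 and 172 TPM with PBS and at 530.4, 741 and 565 with TGF-β1. All TGF-β1 libraries lay above all PBS libraries, a 3.64-fold difference of means and a log2 difference of 1.84 (SE 0.16, adjusted p = 2.5e-09). Hsph1 went from 43.4, 46.4 and 43.9 TPM to 99.2, 90.2 and 103, a log2 difference of 1.11 (SE 0.11, adjusted p = 1.8e-08), again with no overlap. Of all genes, 17.3% were higher without overlap. The inducible Hspa1b went the other way, from 43.5, 46.8 and 45.9 TPM to 23.2, 24.7 and 24.5, and fell by 0.88 on the log2 scale (adjusted p = 1.6e-05), while its copy Hspa1a ran from 17.1 to 19.7 TPM over both groups, a difference of 0.07 (adjusted p = 0.61). Their summed TPM fell, at -0.55 (SE 0.11, adjusted p = 2.7e-04). Thus 2 of the 8 rose and 2 fell, where 48.6% of all genes were called, 12.2% higher and 36.4% lower, and the median of the 8 was 0.01 against -0.20 for all genes. The second fall, of Hsp90aa1, was small (log2 difference -0.21, adjusted p = 0.028). Its call was lost without PBS replicate 1 or 3 or TGF-β1 replicate 1 or 3 (adjusted p up to 0.1). It was also lost with only these 2 groups fitted and after median centring. Median centring subtracted from each library the median of its genes' deviations from their means over all libraries of the fit. That centring shifted the all-gene median by 0.19 and the share of higher calls from 25.01% to 48.1%. After it Hspa1a was called higher (log2 difference 0.26, adjusted p = 0.042). Dnajb1, at -0.38 (adjusted p = 0.09), was called at -0.38 (adjusted p = 4.4e-05) once replicate 1 of the BCAA-free TGF-β1 group was left out of the shared estimate of the spread.

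The same 3 genes moved with TGF-β1 where BCAA or BCKA had been added back. With BCAA, Hspb1 rose by 1.47 and Hsph1 by 1.08 on the log2 scale, and Hspa1b fell by 0.84 (adjusted p 9.8e-08, 3.0e-08 and 3.1e-05), where 44.8% of all genes were called, 11.5% higher and 33.2% lower. With BCKA, the rises were 0.85 and 1.04, and Hspa1b fell by 0.82 (adjusted p 1.3e-04, 5.0e-08 and 4.2e-05), where 45.8% of all genes were called, 11.5% higher and 34.3% lower. The remaining 5 members were not called in either. Without replicate 1 of the BCAA-free TGF-β1 group, Hsp90aa1 was called lower in both (-0.17 and -0.19) and Dnajb1 in the first (-0.21). With BCAA, array weights or only the compared groups also called these genes lower. With BCKA, Hsp90aa1 was near the threshold (limma adjusted p = 0.051). There it was also called lower without certain other single libraries, with other filters, with array weights or with only the compared groups. Median centring shifted the all-gene median by 0.18 and the share of higher calls from 25.8% to 48.4% with BCAA, and shifted the all-gene median by 0.20 and the share of higher calls from 25.1% to 49.6% with BCKA. After centring, Bag3 was called higher with BCAA (0.24) and with BCKA (0.33), and Hspa1a with BCKA (0.30).

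In BCAA-free medium TGF-β1 changed 5 of the 8, about the share of all genes called. In these cells Hspb1 was not called higher. It stood at 205, 206 and 178 TPM with PBS and 229, 139.9 and 142 with TGF-β1, overlapping groups with a log2 difference of -0.24 (adjusted p = 0.19). Hsp90aa1 instead went from 382, 351 and 401 TPM to 1020.4, 1013 and 1076, a 2.74-fold difference of means and a log2 difference of 1.45 (SE 0.08, adjusted p = 2.8e-13). Hsph1 rose further than in complete medium, from 45.8, 41.4 and 51.5 TPM to 209, 147 and 164, by 1.87 (adjusted p = 9.9e-13). The inducible pair fell, Hspa1b from 37.3, 36.1 and 38.6 TPM to 8.65, 12.96 and 16.3, at -1.53 (adjusted p = 2.2e-09), and Hspa1a from 15.9, 16.05 and 14.7 TPM to 7.31, 8.57 and 8.14, at -0.88 (adjusted p = 2.2e-07). So 3 of the 8 rose (with Hspa8, 0.63, adjusted p = 0.018) and 2 fell, where 64.1% of all genes were called, 29.2% higher and 34.9% lower. Without replicate 1 of the TGF-β1 group, Hspb1 was called lower (log2 difference -0.47, adjusted p = 0.0025) and Dnajb1 higher (at 0.21, adjusted p = 0.017). The call of Hspa8 was lost without TGF-β1 replicate 2 or 3 (adjusted p 0.13 and 0.15) or PBS replicate 1 (adjusted p = 0.065), or with only these 2 groups fitted (adjusted p = 0.21).

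A test of the difference between the TGF-β1 responses in BCAA-free and complete medium called 5 of the 8, 2 higher and 3 lower, where 47.6% of all genes were called, 29.2% higher and 18.4% lower, so a count of 5 is not particular to the family. Median centring shifted the all-gene median by -0.12 and the share of higher calls from 61.4% to 50.1%. The difference of responses was 1.67 (SE 0.11, adjusted p = 6.2e-11) for Hsp90aa1, 0.76 (SE 0.15, adjusted p = 3.0e-04) for Hsph1, -2.08 (SE 0.22, adjusted p = 1.2e-07) for Hspb1, -0.95 (SE 0.15, adjusted p = 2.2e-05) for Hspa1a and -0.65 (SE 0.19, adjusted p = 0.009) for Hspa1b. For the summed pair it was -0.79 (SE 0.15, adjusted p = 2.7e-04). The call of Hspa1b was lost when only the 4 groups compared were fitted (adjusted p = 0.057).

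Under TGF-β1, BCAA-free against complete medium set the 8 genes against each other, with 3 higher, 4 lower and a median of -0.06 against 0.10 for all genes, where 60.3% of all genes were called, 35.5% higher and 24.8% lower. Hsp90aa1 was 307, 333 and 296 TPM in complete and 1020.4, 1013 and 1076 in BCAA-free medium, 3.32-fold in means and 1.73 (SE 0.08, adjusted p = 3.2e-14) on the log2 scale. Hsph1 was 99.2, 90.2 and 103 TPM against 209, 147 and 164, a log2 difference of 0.81 (SE 0.11, adjusted p = 1.2e-06). As for 30.2% of all genes, both of these were higher in all 3 BCAA-free libraries than in any complete library. Against them, Hspb1 was 530.4, 741 and 565 TPM in complete and 229, 139.9 and 142 in BCAA-free medium, 3.59-fold lower in means (log2 difference -1.86, SE 0.16, adjusted p = 1.3e-09). Hspa1a and Hspa1b were 2.32-fold and 1.91-fold lower, at -1.12 (adjusted p = 6.8e-09) and -0.92 (adjusted p = 5.7e-06), and their sum went from 42.9, 43.5 and 41.8 TPM to 15.95, 21.5 and 24.5, -1.04 (SE 0.11, adjusted p = 4.2e-08). Thus the inducible HSP70 genes and the inducible HSP90 gene, which heat raises together, moved apart.

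For 3 members the call or the size rested on a library. Hspa8 differed by 0.63 (SE 0.22, adjusted p = 0.018) with all libraries, by 1.12 (adjusted p = 1.8e-11) without replicate 1 of the BCAA-free TGF-β1 group, and was not called without its replicate 2 (log2 difference 0.40, adjusted p = 0.13), its replicate 3 (log2 difference 0.39, adjusted p = 0.15) or replicate 3 of the complete TGF-β1 group (adjusted p = 0.0515), or with only these 2 groups fitted (adjusted p = 0.22). Dnajb1 differed by 0.09 (adjusted p = 0.71), and by 0.48 (adjusted p = 9.0e-06) without replicate 1 of the BCAA-free group. Bag3, at 111, 112 and 113 TPM in complete and 85.9, 108 and 101 in BCAA-free medium, was called at -0.20 (adjusted p = 0.0459) and lost the call without any of 19 single libraries of the 24, to -0.10 (adjusted p = 0.22) without that same replicate 1. The interaction, without it, also called Hspa8 at 1.004 and Dnajb1 at 0.60.

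Adding BCAA or BCKA back under TGF-β1 moved each called gene the other way. These comparisons share the BCAA-free TGF-β1 libraries with those above, so the opposite signs are not independent of them. With BCAA, Hsp90aa1 stood at 313, 339 and 305 TPM and Hspb1 at 522, 528 and 492. With BCKA, Hsp90aa1 stood at 377, 338 and 345 TPM and Hspb1 at 379, 448 and 473. Against the BCAA-free group, 4 of the 8 were higher and 3 lower with BCAA, where 58.3% of all genes were called, 25% higher and 33.3% lower. With BCKA, likewise 4 were higher and 3 lower, where 58.4% of all genes were called, 25.1% higher and 33.4% lower. Hspa1a was higher by 1.07 with BCAA and 1.16 with BCKA, and Hsph1 lower, at -0.79 and -0.86. Dnajb1 differed by 0.03 (adjusted p = 0.91) and 0.13 (adjusted p = 0.56), and without replicate 1 of the BCAA-free TGF-β1 group by -0.36 (adjusted p = 2.6e-04) and -0.26 (adjusted p = 0.005). For Hspa8 the calls were lost without replicate 2 or 3 of that group (adjusted p 0.13 and 0.15 with BCAA, 0.068 and 0.081 with BCKA), and with BCAA also without replicate 3 of the group with BCAA added back (adjusted p = 0.0538). With only the compared groups fitted, the calls of Hspa8 (adjusted p 0.22 with BCAA and 0.17 with BCKA) and Bag3 (adjusted p 0.085 and 0.09) were lost.

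The acids and keto acids were compared directly in TGF-β1 cells. BCKA are the acids after transamination, in which a keto group replaces the amino group. The labels as used here give no doses for the added acids, so the doses may differ. None of the 8 was called by limma, where 0.268% of all genes were called, 0.222% higher and 0.0459% lower. Of the 8, 0 had an unadjusted p under 0.05, and array weights called 0. The 95% interval of the log2 difference, BCKA against BCAA, was -0.01 to 0.31 for Hsp90aa1, -0.58 to 0.07 for Hspb1, -0.43 to 0.14 for Hspa1b and -0.55 to 0.38 for Hspa8, the widest of the 8.

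**Figure D2:**
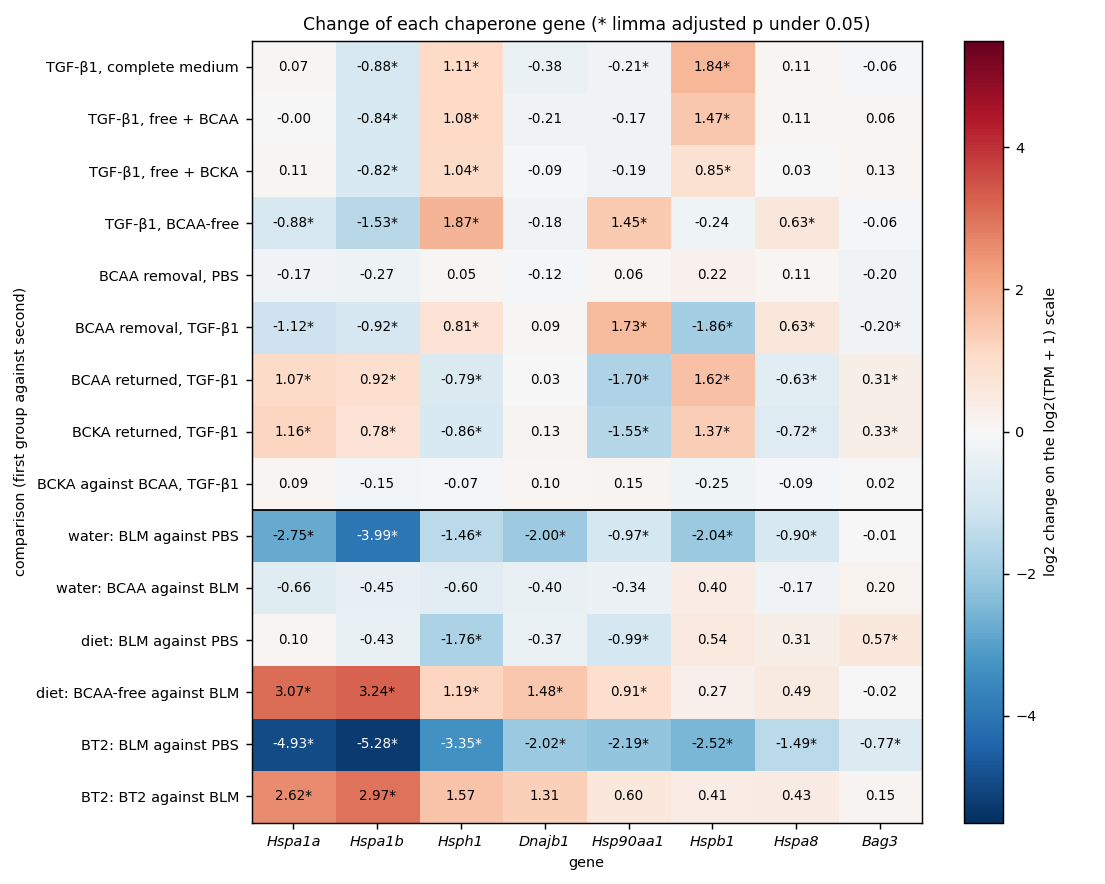
Log2 change of each of the 8 genes (columns) in 15 comparisons (rows; cultures above the line, lungs below it), printed in each cell and coloured from blue (lower) to red (higher); a star marks an adjusted p under 0.05. Hsp90aa1 and Hspb1 changed in opposite directions on BCAA removal under TGF-β1, and in the water and BT2 experiments 15 of 16 cells for bleomycin against PBS are called lower.

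The wider chaperone lists differed in their counts in the same comparison of BCAA-free with complete medium under TGF-β1, where the median of all genes was 0.10 and 35.5% of all genes were called higher and 24.8% lower; differences between lists were not tested. Of the other HSP70 and HSP90 system genes of the cytosol, 16 of 27 were called higher and 1 lower (median 0.51). Among them, the largest changes were in Hspbp1, an HSP70 exchange factor (17.6 to 64.6 mean TPM, log2 difference 1.79), Fkbp4, an HSP90 co-chaperone (68.7 to 177, 1.34), and the J-domain gene Dnajb4, the single gene that fell (92.7 to 36.7, -1.32). All 8 subunits of the TRiC/CCT chaperonin, the ring that folds actin and tubulin, were higher (median 1.01), led by Cct3 (1.68) and Cct6a (1.46). Of the mitochondrial chaperones and proteases, 7 of 8 were called higher and 0 lower (median 1.36). Hspa9, the mitochondrial HSP70, went from 241 ± 29.3 TPM to 1452 ± 55.95 (SD, n = 3), a log2 difference of 2.59 (SE 0.09, adjusted p = 4.4e-16), and the protease gene Lonp1 from 109 ± 12.5 to 596 ± 128, 2.43 (SE 0.11, adjusted p = 6.4e-14). The rise of the mitochondrial HSP70 was thus larger than that of any of the 8 cytosolic genes.

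Small heat shock protein genes went mostly lower. Of the other small heat shock protein genes, 1 of 5 was called higher and 4 lower (median -2.05). Hspb7 fell from 305 to 36.98 mean TPM (-3.04), Cryab, the αB-crystallin gene, from 455 to 81.4 (-2.58), Hspb2 from 9.91 to 1.60 (-2.05) and Hspb6 from 48.5 to 13.6 (-1.91), while Hspb8 rose (0.79). In complete medium TGF-β1 had raised Hspb7 (1.97), Cryab (1.09) and Hspb2 (0.96) beside Hspb1, each called. Of the endoplasmic reticulum chaperones, 3 of 13 were called higher and 5 lower (median -0.18), and Serpinh1, the collagen chaperone HSP47, fell (-1.31) and Hspa5, the reticulum's HSP70, rose (1.28). Of proteasome subunits, 14 of 25 were called higher and 3 lower (median 0.36), led by Psmc2 (1.19) and Psmb5 (1.12). The heat shock factor genes Hsf1, Hsf2 and Hsf4 were not called, at -0.06 (adjusted p = 0.75), 0.09 (adjusted p = 0.63) and -0.09 (adjusted p = 0.72). The gene of their binding protein, Hsbp1, fell by 0.73 (adjusted p = 2.7e-04). After median centring, which shifted the all-gene median by -0.11, the 7 called members were called in the same directions.

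In TGF-β1 against PBS in BCAA-free medium, where 29.2% of all genes were called higher and 34.9% lower, the cytosolic HSP70 and HSP90 system list had 19 of 27 called higher and 3 lower (median 0.69), with Hspbp1 (1.45), the HSP90 co-chaperone gene Cacybp (1.15) and the J-domain gene Dnaja4 (1.14) changed most. In complete medium it had 5 of 27 called higher and 7 lower (median -0.03), against 12.2% and 36.4% of all genes, with Bag2 (1.01), Dnaja1 (-0.71) and the low Hspa1l (-0.65) changed most.

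In the lungs called members moved in 1 direction within each comparison, other than bleomycin against PBS in the diet experiment, and over a wider range than in the cultures. Between 9 lung groups the mean TPM of Hspa1b spanned 64.4-fold, that of Hsph1 9.90-fold and that of Bag3 2.02-fold, across tables that were normalised separately. Summed over the 8, levels were 5091, 5282 and 5966 TPM in the PBS lungs of the water experiment, 2206, 1786, 3007 and 1565 in those of the diet experiment and 9417, 8137 and 8525 in those of the BT2 experiment. These PBS levels come from separately normalised tables and were not tested against each other; changes were tested within each experiment.

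**Figure D3:**
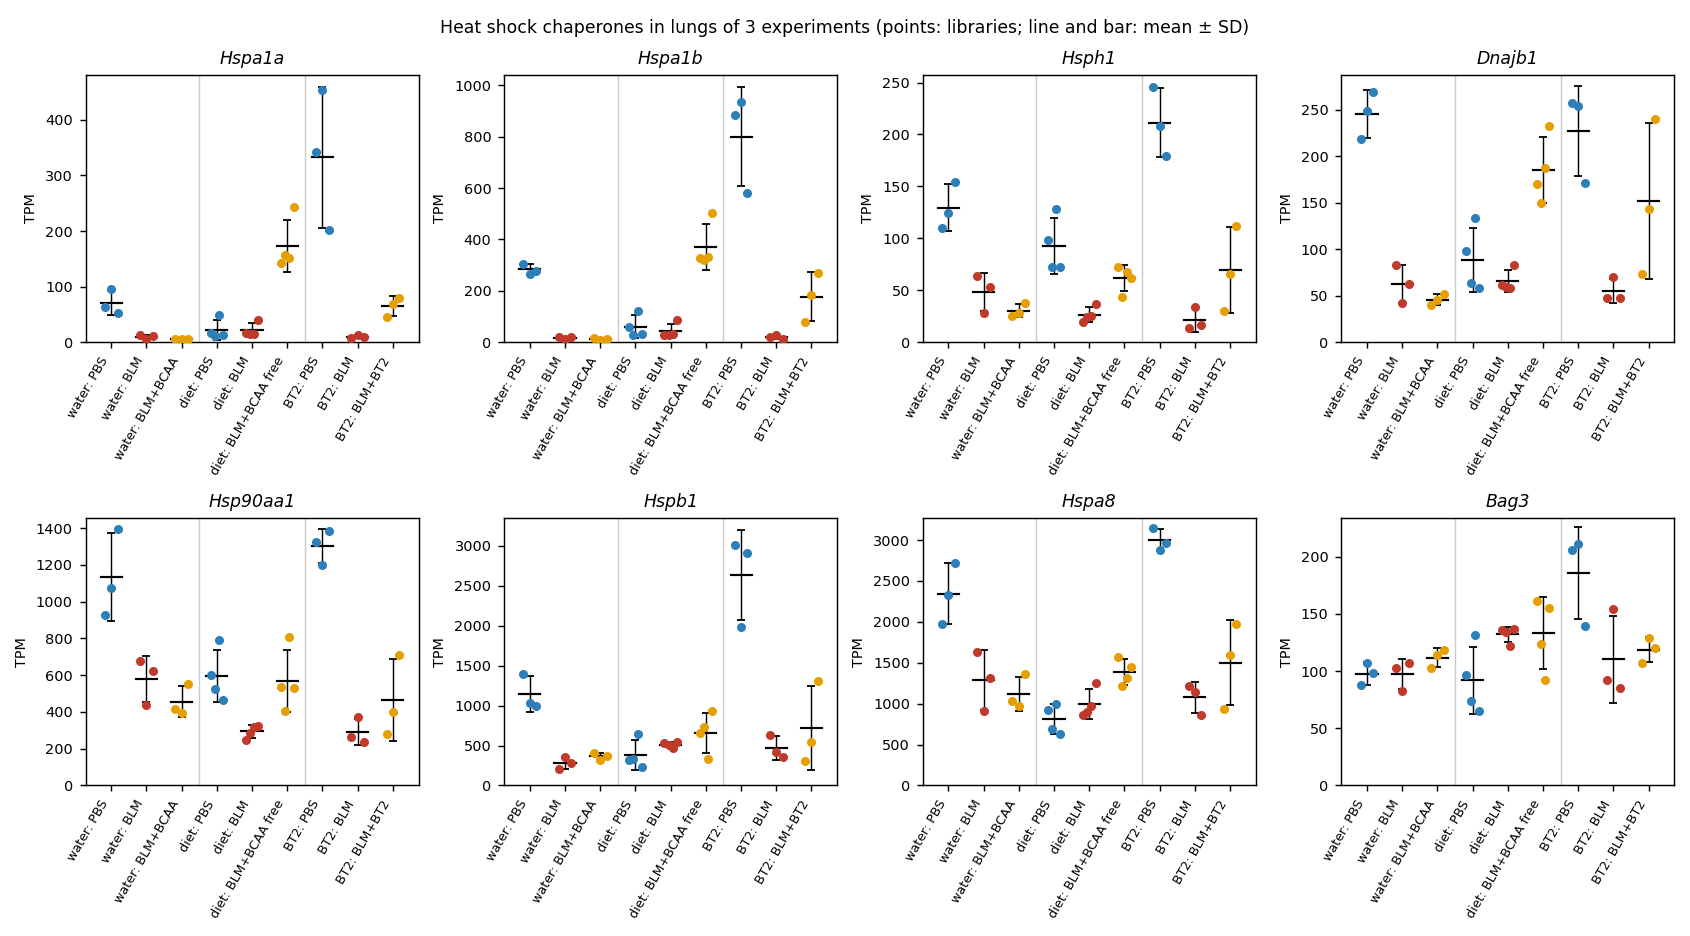
TPM of the 8 genes (linear axes from 0) in the 9 lung groups, with grey lines between the 3 experiments, 1 point per library and the group mean ± SD as a line and bar; PBS is blue, bleomycin red, and treated bleomycin groups are orange. Hspa1b stood at 579 to 937 TPM in the PBS lungs of the BT2 experiment and at 29.3 to 122 in those of the diet experiment.

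In the water experiment bleomycin lowered 7 of the 8, where 21.9% of all genes were called, 14.8% higher and 7.08% lower, with a median of -1.73 against 0.09 for all genes. The inducible HSP70 gene Hspa1b stood at 306, 266 and 279 TPM with PBS and 18.9, 12.3 and 20.7 with bleomycin, 16.4-fold lower in means (log2 difference -3.99, SE 0.23, adjusted p = 4.5e-06). Hspa1a stood at 64.1, 96.4 and 52.6 TPM and 12.4, 6.36 and 10.2, 7.35-fold lower (log2 difference -2.75, SE 0.25, adjusted p = 7.1e-05), and the sum of the pair differed by -3.70 (SE 0.21, adjusted p = 4.5e-06). Median centring shifted the all-gene median by -0.09 and the share of higher calls from 67.7% to 53.8%. The groups did not overlap in Hspa1a or Hspa1b, and 14.5% of all genes were lower without overlap. Their J-domain partner Dnajb1 went from 218, 249 and 269.7 TPM to 82.8, 41.8 and 63.1 (log2 difference -2.003, SE 0.22, adjusted p = 1.8e-04), and Hspb1 from 1401, 1035 and 992 to 202, 357 and 285 (log2 difference -2.04, SE 0.22, adjusted p = 1.6e-04). Hsph1 and Hsp90aa1 fell by 1.46 and 0.97 (adjusted p 0.0039 and 0.009). Hspa8 fell by 0.90 (adjusted p = 0.018), a call lost without PBS replicate 2 (adjusted p = 0.0526) or 3 (adjusted p = 0.063) and with no filter on low values (adjusted p = 0.076). Bag3 stood at 87.5, 107 and 98.3 TPM with PBS and 103, 82.5 and 107 with bleomycin, a difference of -0.01 (adjusted p = 0.98) with a 95% interval of -0.32 to 0.31.

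BCAA in the drinking water called none of the 8 against bleomycin alone by limma, where 1.2% of all genes were called, 0.872% higher and 0.331% lower. Of the 8, 1 had an unadjusted p under 0.05 (Hspa1a, -0.66, SE 0.25, adjusted p = 0.22). Its levels were 12.4, 6.36 and 10.2 TPM with bleomycin alone and 5.93, 5.32 and 5.39 with BCAA, lower in all 3 treated libraries. Of all genes, 8.13% were lower without overlap. With array weights 2 were called, Hspa1a (log2 difference -0.76, adjusted p = 0.038) and Hspa1b (log2 difference -0.65, adjusted p = 0.036), and without bleomycin replicate 2 Hsph1 alone was (log2 difference -0.94, adjusted p = 0.04). The 95% interval of the difference was -0.95 to 0.05 for Hspa1b and -0.81 to 0.13 for Hsp90aa1. Against PBS, the lungs with BCAA and bleomycin had 7 of the 8 lower, where 33.8% of all genes were called, 22.7% higher and 11.1% lower. Hspa1b differed by -4.44 (adjusted p = 7.8e-07) and Bag3 by 0.19 (adjusted p = 0.32). This comparison shares its PBS libraries with that of bleomycin alone.

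Bleomycin in the BT2 experiment lowered all 8, where 30.6% of all genes were called, 17.3% higher and 13.3% lower, with a median of -2.35 against -0.02 for all genes. Hspa1b stood at 884, 937 and 579 TPM in PBS lungs and 18.7, 28.7 and 13.2 in bleomycin lungs, 39.6-fold lower in means (log2 difference -5.28, SE 0.43, adjusted p = 8.5e-05). Hspa1a stood at 342, 454 and 202 and 7.34, 12.8 and 8.71 TPM, 34.6-fold lower (log2 difference -4.93, SE 0.32, adjusted p = 5.2e-05), and the sum of the pair differed by -5.21 (SE 0.38, adjusted p = 6.5e-05). The groups did not overlap in either gene, and 18.7% of all genes were lower without overlap. The exchange factor gene Hsph1 went from 246, 208 and 179.7 TPM to 13.2, 34.04 and 16.8 (log2 difference -3.35, SE 0.45, adjusted p = 8.9e-04), Hspb1 from 3011, 1989 and 2912 to 637, 415 and 351 (log2 difference -2.52, SE 0.46, adjusted p = 0.0037) and Hsp90aa1 from 1325, 1201 and 1381 to 263, 373 and 235 (log2 difference -2.19, SE 0.31, adjusted p = 0.0012). Dnajb1 and Hspa8 fell by 2.02 and 1.49 (adjusted p 0.004 and 0.0039). Bag3, at 206, 212 and 139 and 91.9, 154 and 85.4 TPM with overlap, was called at -0.77 (adjusted p = 0.039), and this was lost without PBS replicate 1 or 2, bleomycin replicate 1 or 3 or any BT2 library (adjusted p up to 0.13).

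BT2 against its bleomycin control raised the inducible pair. Hspa1b stood at 79.2, 183 and 269.7 TPM with BT2 against 18.7, 28.7 and 13.2 without, 8.78-fold in means (log2 difference 2.97, SE 0.43, adjusted p = 0.0086), and Hspa1a at 44.5, 69.3 and 79.2 against 7.34, 12.8 and 8.71, 6.70-fold (log2 difference 2.62, SE 0.32, adjusted p = 0.005); their sum differed by 2.91 (SE 0.38, adjusted p = 0.0062). Every BT2 library lay above every control library in both, as for 17.2% of all genes. These 2 of 8 were the calls, where 11.8% of all genes were called, 6.34% higher and 5.41% lower, and the median of the 8 was 0.96 against 0.12. Hsph1 and Dnajb1 had differences of 1.57 (SE 0.45, adjusted p = 0.0507) and 1.31 (SE 0.38, adjusted p = 0.0505), just outside the threshold, and 4 of 8 were called with a filter at a TPM of 5, with array weights, without mitochondrial transcripts, without bleomycin replicate 2 or without BT2 replicate 1. The 3 BT2 libraries differed: Hsph1 stood at 29.9, 65.7 and 112 TPM, Dnajb1 at 73.1, 143 and 240.3, Hsp90aa1 at 280.0, 402 and 712 and Hspb1 at 303, 545 and 1306, each highest in replicate 3 and lowest in replicate 1. Differences for Hsp90aa1, Hspa8, Hspb1 and Bag3 were 0.60 (adjusted p = 0.21), 0.43 (adjusted p = 0.3), 0.41 (adjusted p = 0.57) and 0.15 (adjusted p = 0.7). Against the PBS lungs, 4 of the 8 were lower with bleomycin and BT2, where 5.3% of all genes were called, 4.13% higher and 1.17% lower. They were Hspa1a (log2 difference -2.32, adjusted p = 0.0059), Hspa1b (log2 difference -2.31, adjusted p = 0.017), Hsp90aa1 (log2 difference -1.59, adjusted p = 0.02) and Hspb1 (log2 difference -2.11, adjusted p = 0.03). That count was 1 without PBS replicate 1, without PBS replicate 2 or without BT2 replicate 2, and 2 without PBS replicate 3 or BT2 replicate 1. It was 6 without bleomycin replicate 1 or BT2 replicate 3, 5 without bleomycin replicate 2 and 7 with only these 2 groups fitted, where Hsph1 and Hspa8 were called as well as Bag3.

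The diet experiment had another starting level. Its PBS lungs, poor in endothelial markers, held Hspa1b at 60.1, 29.3, 122 and 31.04 TPM, and bleomycin lungs on normal diet held it at 26.1, 29.1, 30.7 and 84.98. These groups overlapped, with a difference of -0.43 (SE 0.45, adjusted p = 0.43), and replicate 3 of the PBS group and replicate 4 of the bleomycin group were the highest. For Hspa1a the difference was 0.10 (SE 0.44, adjusted p = 0.85). Bleomycin here lowered 2 of the 8, Hsph1 from 98.1, 71.98, 128 and 72.2 TPM to 19.03, 24.6, 25.6 and 37.01 (log2 difference -1.76, SE 0.24, adjusted p = 4.0e-05) and Hsp90aa1 from 600.5, 523, 792 and 465 to 249, 288, 320.5 and 325 (log2 difference -0.99, SE 0.22, adjusted p = 0.0016), with no overlap in either. Of all genes, 12.3% were lower without overlap. Bag3 was called higher at 0.57 (adjusted p = 0.039). Here 60.9% of all genes were called, 48.7% higher and 12.3% lower, and the median of the 8 was -0.13 against 0.56 for all genes. Median centring shifted the all-gene median by -0.56 and the share of higher calls from 79.9% to 49.02%. On that scale Dnajb1 was called lower (log2 difference -0.93, adjusted p = 0.0027), Bag3 was not called (log2 difference 0.01, adjusted p = 0.97) and the median of the 8 was -0.70. The call of Bag3 was also lost without PBS replicate 1, 2 or 4 or any of the 4 bleomycin libraries (adjusted p up to 0.12), and without PBS replicate 3 Hspb1 was called higher (log2 difference 0.83, adjusted p = 0.029).

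The BCAA-free diet raised 5 of the 8 against bleomycin on normal diet, where 10.1% of all genes were called, 4.02% higher and 6.12% lower, with a median of 1.05 against -0.09 for all genes. Hspa1b stood at 329, 320.1, 332 and 503 TPM on the BCAA-free diet against 26.1, 29.1, 30.7 and 84.98, 8.68-fold in means (log2 difference 3.24, SE 0.45, adjusted p = 9.1e-04). Hspa1a stood at 143, 157, 151 and 243 against 16.2, 14.9, 14.2 and 40.2, 8.12-fold (log2 difference 3.07, SE 0.44, adjusted p = 0.0011), and the sum of the pair differed by 3.21 (SE 0.45, adjusted p = 9.4e-04). In both genes the lowest BCAA-free library lay above the highest control library, as for 6.05% of all genes. Dnajb1 stood at 171, 149.9, 187 and 233 TPM against 61.3, 59.04, 58.04 and 83.2 (log2 difference 1.48, SE 0.24, adjusted p = 0.0025), Hsph1 at 72.3, 43.7, 67.6 and 62.00 against 19.03, 24.6, 25.6 and 37.01 (log2 difference 1.19, SE 0.24, adjusted p = 0.0081), and Hsp90aa1 at 535, 405, 807 and 528 against 249, 288, 320.5 and 325 (log2 difference 0.91, SE 0.22, adjusted p = 0.02). None of these 3 overlapped, and the call of Hsp90aa1 was lost without bleomycin replicate 1 (adjusted p = 0.073). Hspa8, Hspb1 and Bag3 had differences of 0.49 (adjusted p = 0.12), 0.27 (adjusted p = 0.65) and -0.02 (adjusted p = 0.97), and after median centring, which shifted the all-gene median by 0.13 and the share of higher calls from 39.7% to 55.8%, Hspa8 was called at 0.62. Without replicate 3 of the BCAA-free group, the library with the fewest genes, the count stayed at 5.

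Against the PBS lungs of the same experiment, the BCAA-free diet group had 5 of the 8 higher, where 54.8% of all genes were called, 42.3% higher and 12.5% lower. Hspa1a, Hspa1b, Dnajb1 and Hspa8 were higher by 3.17, 2.81, 1.12 and 0.80 on the log2 scale (adjusted p 5.6e-05, 1.8e-04, 0.0018 and 0.0027). Bag3 was at the threshold (log2 difference 0.55, adjusted p = 0.0496), a call lost without any of 10 of the 12 libraries, or with the replicate number as a block (adjusted p = 0.083). Median centring shifted the all-gene median by -0.44 and the share of higher calls from 77.2% to 49.4%. On that scale Hsph1 was called lower (log2 difference -1.01, adjusted p = 0.002) and Hspa8 was not called (log2 difference 0.36, adjusted p = 0.066). Hsph1, at -0.57 (adjusted p = 0.06), was also called lower without PBS replicate 2 or 4, bleomycin replicate 4 or BCAA-free replicate 3 (adjusted p 0.0467, 0.0463, 0.045 and 0.044), and Hspb1, at 0.80 (adjusted p = 0.0545), higher without PBS replicate 3 (log2 difference 1.10, adjusted p = 0.0078) or BCAA-free replicate 3 (log2 difference 1.11, adjusted p = 0.0029).

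The order of levels is given here for Hspa1b, and other members had other orders in the water and diet experiments. With BCAA against bleomycin alone, mean TPM was higher for Hspb1 (363 against 281) and Bag3 (112 against 97.4), neither called. In the diet experiment mean Hsph1 was highest with PBS (92.7), then on the BCAA-free diet (61.4) and with bleomycin (26.6). Hsp90aa1 had the same order (595, 569 and 295). Within the water experiment Hspa1b fell in the order PBS, bleomycin, bleomycin with BCAA, of which the last pair did not differ beyond its spread (17.3 ± 4.42 (SD, n = 3) against 12.4 ± 3.57 (SD, n = 3) TPM). In the BT2 experiment the order was PBS (800.2 ± 193), BT2 (177 ± 95.4) and bleomycin (20.2 ± 7.88), each step called. In the diet experiment the BCAA-free group (371 ± 88.2) was above PBS (60.6 ± 43.2) and bleomycin (42.7 ± 28.2), and the last pair did not differ beyond its spread. Correlations among the 8 over the 30 lung libraries, each gene centred on its mean in each table, were above 0 for 28 of 28 pairs of genes (median r 0.78, lowest 0.29, highest 0.98), which describes libraries that share groups and tables. Over the 24 culture libraries they were above 0 for 13 of 28 pairs (median -0.14).

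The ratio of Hspa1b to Hspa1a in TPM was not constant, and how reads were divided between the copies was not tested. It was 2.37 to 2.74 in PBS cultures with complete medium and 1.18 to 1.42 with TGF-β1. In lungs it was 2.76 to 5.30 with PBS and 1.52 to 2.03 with bleomycin in the water experiment, and 2.06 to 2.87 and 1.51 to 2.54 in the BT2 experiment.

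Markers of other cell types moved with these differences, and their part in them was not tested. The marker counts here and below stand beside these shares of all genes called higher and lower. With bleomycin they were 14.8% and 7.08% in the water, 48.7% and 12.3% in the diet and 17.3% and 13.3% in the BT2 experiment. The BCAA-free diet gave 4.02% and 6.12%, and BT2 gave 6.34% and 5.41%. Alveolar type 2 markers (Sftpc, Sftpa1, Sftpb, Lamp3) of the BT2 experiment summed to 46620.0 to 59527 TPM with PBS, 2245 to 15231 with bleomycin and 42714 to 75210.2 with BT2. All 4 were called lower with bleomycin and higher with BT2. In the diet experiment the sums were 8404 to 12585 TPM with PBS, 18659.5 to 26252 with bleomycin and 39129 to 58174 on the BCAA-free diet, with 4 of 4 called higher and 0 lower for the diet. In the water experiment they were 39528 to 40472 TPM with PBS and 33849 to 47522 with bleomycin, with 0 of 4 called by limma (unadjusted p under 0.05 for 1), while 7 of the 8 chaperone genes fell. Club and ciliated cell markers (Scgb1a1, Scgb3a2, Foxj1, Tppp3) had 0 of 4 called higher and 2 lower for bleomycin in the water experiment, 0 of 4 called higher and 4 lower in the diet experiment and 0 of 4 called higher and 3 lower in the BT2 experiment. Their sums with PBS were 137472 to 246856, 117114 to 285641 and 104884 to 149161 TPM in these experiments, and with bleomycin 50279 to 110638, 24855 to 29347 and 11646 to 24786.

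Heart muscle markers (Myh6, Actc1, Tnnt2, Myl7, Nppa) had 0 of 4 called higher and 3 lower for bleomycin in the water experiment, 0 of 5 called higher and 5 lower in the diet experiment and 0 of 5 called higher and 5 lower in the BT2 experiment, and 3 of 5 called higher and 0 lower for the BCAA-free diet and 2 of 5 called higher and 0 lower for BT2. Their sums in the diet experiment were 803 to 1766 TPM with PBS, 42.4 to 83.6 with bleomycin and 223 to 503 with the BCAA-free diet, and in the BT2 experiment 549.5 to 1421, 80.3 to 96.5 (with Nppa listed at 0 in all 3) and 191 to 291. In the water experiment they were 163 to 288 with PBS and 79.1 to 178 with bleomycin. In the BT2 experiment, macrophage markers (Cd68, Adgre1, Mrc1, Marco, Itgam, Chil3) had 5 of 6 called higher and 0 lower for bleomycin and 0 of 6 called higher and 5 lower for BT2, with sums of 244 to 306 TPM with PBS, 2271 to 3482 with bleomycin and 977 to 1577 with BT2. Fibroblast markers there had 4 of 5 called higher and 0 lower for bleomycin and 0 of 5 called higher and 3 lower for BT2, with sums of 222 to 262, 1799.8 to 2292 and 443 to 1266 TPM. In the diet experiment 6 of 6 macrophage and 4 of 5 fibroblast markers were called higher with bleomycin, as were 48.7% of all genes. With the BCAA-free diet 3 of each were called lower, against 6.12% of all genes. There macrophage sums were 119.99 to 177 TPM with PBS, 1327 to 2721 with bleomycin and 927 to 1193 with the BCAA-free diet, and fibroblast sums 182 to 275, 1928 to 2632 and 706 to 1260. In the water experiment 3 of 6 macrophage and 3 of 5 fibroblast markers were called higher with bleomycin, against 14.8% of all genes. With BCAA against bleomycin alone 1 of 6 and 2 of 5 were called higher, against 0.872% of all genes. Macrophage sums were 323 to 435 TPM with PBS, 562 to 1066 with bleomycin and 1977 to 3026 with BCAA, and fibroblast sums 188 to 321, 617 to 880 and 1393 to 2011. The share of mitochondrial transcripts was 12.2 to 17.3% in the PBS lungs of the diet experiment and 4.41 to 5.29% in its bleomycin lungs. On the BCAA-free diet it was 16.5% in replicate 3, the library with few genes above 0, and 4.38 to 5.66% in the other 3.

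**Figure D4:**
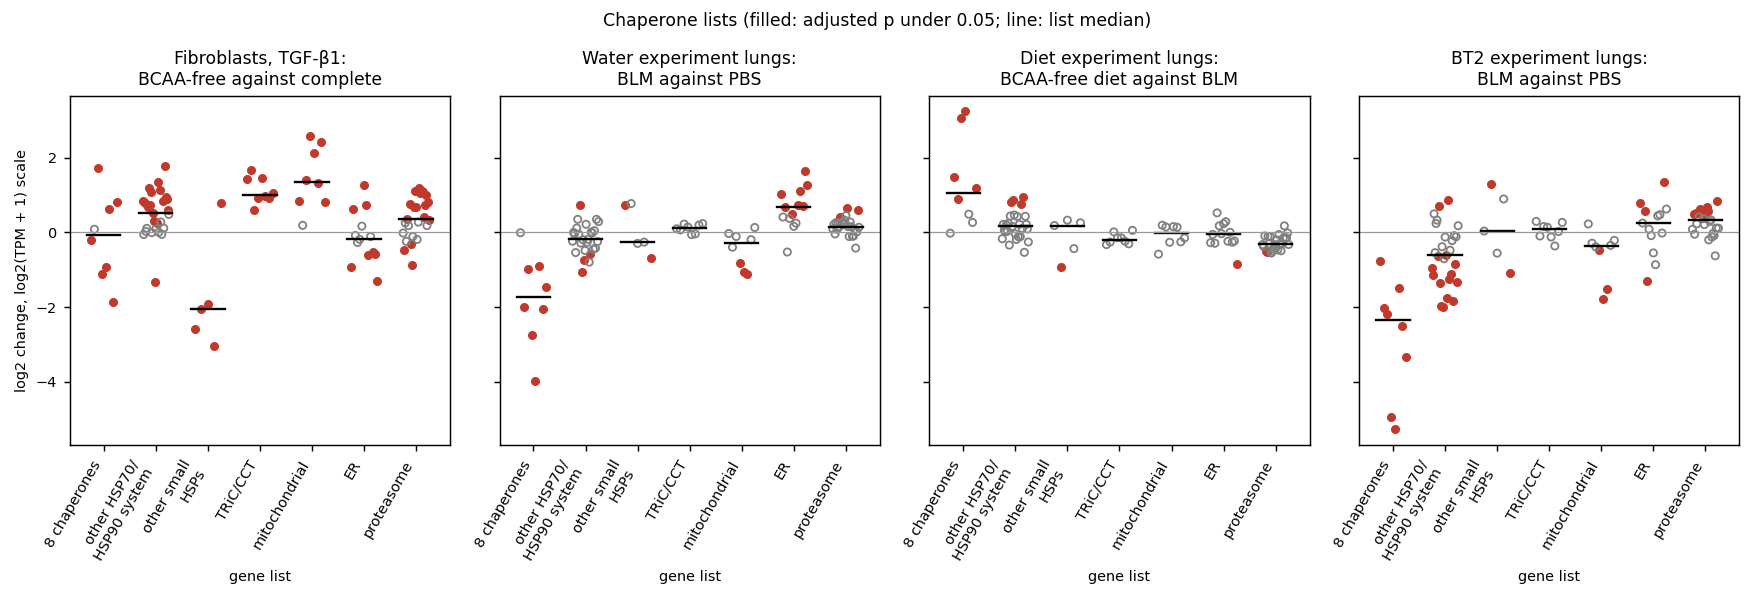
Log2 change of each gene (1 point per gene, filled where the adjusted p was under 0.05) and the median (line) for the 8 chaperones and 6 fixed lists, in 4 comparisons. On BCAA removal in cultures the mitochondrial and TRiC/CCT lists rose (medians 1.36 and 1.01) while the 8 split. In each lung panel drawn the 8 had the largest median change of the 7 lists. Bleomycin against PBS in the diet experiment is not drawn. There the median of the 8 was -0.13, smaller in size than that of the proteasome list.

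Of the other HSP70 and HSP90 system genes in lungs, the BT2 experiment had 2 of 27 called higher and 13 lower (median -0.59) with bleomycin, where 17.3% of all genes were called higher and 13.3% lower, led by the J-domain genes Dnaja4 (40.9 to 10.2 mean TPM, -1.99) and Dnaja1 (267 to 67.6, -1.97) and by Hspa4l, an HSP110 gene (-1.85). The water experiment had 1 of 26 called higher and 3 lower (median -0.19), against 14.8% and 7.08% of all genes. Dnaja1 (-1.06) and Dnaja4 (-0.75) fell most and Cdc37, which brings kinases to HSP90, rose (0.74). The BCAA-free diet gave 4 of 27 called higher and 0 lower (median 0.16), against 4.02% and 6.12% of all genes, led by Hspa4l (0.94), Dnaja4 (0.88) and Dnaja1 (0.81). BT2 gave 2 of 27 called higher, Dnaja4 (1.55) and Fkbp4 (1.23), and 0 lower (median 0.04), where 6.34% of all genes were called higher and 5.41% lower, a share of the list near that of all genes. For bleomycin in the diet experiment the list had 4 of 27 called higher and 6 lower (median -0.13), against 48.7% and 12.3% of all genes. Fkbp5, an HSP90 co-chaperone that glucocorticoids induce, rose from 5.70 to 119 mean TPM (4.13), and Hspa2 (-1.75) and Hspa4l (-1.73) fell.

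Of the mitochondrial chaperones and proteases, bleomycin gave 0 of 8 called higher and 3 lower in the water experiment (median -0.29), 0 and 2 in the diet experiment (median -0.14) and 0 and 3 in the BT2 experiment (median -0.37), and the BCAA-free diet and BT2 gave 0 of 8 called in either direction (by limma, with an unadjusted p under 0.05 for 0 and 1). The genes that fell were the chaperonin pair in each experiment and Hspa9 in the water (-0.81) and BT2 (-0.47) experiments. Hspd1 and Hspe1 differed by -1.06 and -1.11 with water, -0.82 and -0.84 with diet and -1.77 and -1.53 with BT2, each called. TRiC/CCT subunits were not called with bleomycin (0 of 8 by limma in all 3 experiments, with an unadjusted p under 0.05 for 0, 1 and 0 in the water, diet and BT2 experiments). Endoplasmic reticulum chaperones had 8 of 13 called higher and 0 lower with bleomycin in the water experiment (median 0.68), led by Sdf2l1 (1.66) and Serpinh1 (1.26), 5 higher and 2 lower in the diet experiment (median -0.11) and 3 higher and 1 lower in the BT2 experiment (median 0.25). The shares of all genes called higher in these comparisons were 14.8%, 48.7% and 17.3%, and those called lower 7.08%, 12.3% and 13.3%. Proteasome subunits had 3 of 25 called higher in the water experiment (median 0.16), 8 in the diet experiment (median 0.24) and 10 in the BT2 experiment (median 0.34) with bleomycin, and 0 lower in each, the last led by Psmd14 (0.85) and Psmb7 (0.67). Of other small heat shock protein genes, Cryab was 375 mean TPM with PBS and 634 with bleomycin in the water experiment (0.74), a rise where Hspb1 fell, and differed by 1.02 in the diet experiment and 0.04 (adjusted p = 0.91) in the BT2 experiment. Hspb8, which forms a complex with BAG3, fell in the water (-0.69) and BT2 (-1.10) experiments and rose in the diet experiment (0.72). Hspb2 rose in the diet (1.19) and BT2 (1.29) experiments, Hspb7 in the diet experiment (0.84), and Hspb6 fell there (-0.78). Hspb3 did not pass the filter in any table.

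Of the heat shock factor genes, Hsf1 changed in 1 of the 5 lung comparisons of bleomycin, diet and BT2. It was 33.5 mean TPM with PBS and 15.8 with bleomycin in the BT2 experiment (log2 difference -1.07, SE 0.19, adjusted p = 0.0032), and differed by -0.35 (adjusted p = 0.21) and 0.36 (adjusted p = 0.28) in the water and diet experiments, by 0.01 (adjusted p = 0.99) with the BCAA-free diet and by 0.66 (adjusted p = 0.0505) with BT2. Hsf4 fell with bleomycin in the BT2 experiment (-0.86) and rose with BT2 (0.65), and Hsf2 was called in none of these 5 comparisons. Transcript levels do not report the activity of these factors.

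The gene Rbm3, whose RNA-binding product rises with cold, was called opposite to the inducible HSP70 pair in the BT2 experiment and for the BCAA-free diet. It stood at 83.5, 93.8 and 79.1 TPM with PBS, 378, 262 and 277 with bleomycin and 167, 121 and 84.1 with BT2, where bleomycin raised it by 1.81 (adjusted p = 8.4e-04) and BT2 lowered it, at -1.33 (adjusted p = 0.015). In the diet experiment it stood at 154, 153, 194 and 117 TPM on normal diet and 94.9, 87.7, 96.00 and 80.9 on the BCAA-free diet (log2 difference -0.76, adjusted p = 0.037), lower with no overlap, as for 13.2% of all genes. With bleomycin in the water experiment it differed by 0.43 (adjusted p = 0.1), and in the diet experiment by 0.81 (adjusted p = 0.0044), where the members' median was -0.13. The other cold-inducible gene of the list, Cirbp, was called lower with bleomycin in the water experiment (log2 difference -0.99, adjusted p = 0.041) and not in the diet (log2 difference 0.63, adjusted p = 0.11) or BT2 (log2 difference 0.31, adjusted p = 0.34) experiments. Cirbp is not reported here for BT2 or the BCAA-free diet, and the part of either gene in the chaperone differences was not tested.

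**Figure D5:**
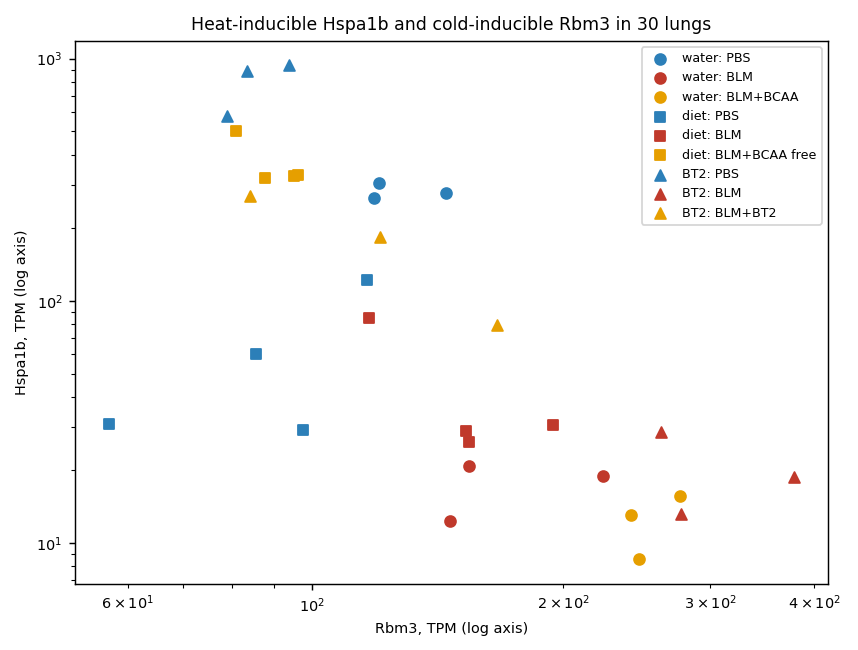
Hspa1b against Rbm3 in TPM (both log axes) in the 30 lungs, with 1 point per library, shape by experiment and colour by group. In the BT2 experiment PBS libraries stood at 579 to 937 TPM of Hspa1b and bleomycin libraries at 13.2 to 28.7, with Rbm3 at 79.1 to 93.8 and 262 to 378; the PBS lungs of the diet experiment were low in both, at 29.3 to 122 and 57.04 to 116.

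By the fixed rule for likeness, the Pearson correlation with the mean profile of the 8 was ranked over 11341 other genes of a mean TPM of at least 5 and 30 lung libraries, each gene centred within its table. The 5 most alike were Dnaja1 (r 0.97), a J-domain partner of HSP70, Gm15542 (0.92), Ptgs2 (0.92), which encodes cyclooxygenase 2, Amigo1 (0.90) and Tacc2 (0.90). Rbm3, looked up after its values were seen, had an r of -0.71 and ranked 11123 of 11341 from most to least alike, so it was not the most opposite gene. Cirbp, the other cold-inducible gene of the list, had an r of -0.18. In the 24 culture libraries, over 10584 genes, the most alike included Mta3 (0.92), Agpat1 (0.92), Rraga (0.92) and Litaf (0.92), where the members do not share a profile. Libraries share groups, so these values are descriptions.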

How the data were processed

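Poly(A) RNA was sequenced from 24 fibroblast culture libraries and 30 lung libraries. The values are TPM deposited by the authors in 4 tables, 1 for the cultures and 1 for each lung experiment, made from reads with FastQC, Trim Galore, HISAT2, featureCounts of Subread and DESeq2 on mm39, per the submitters' processing notes, which give no role or version. TPM keep no depth, so depth per library is unknown and no count test was run. Lung rows with no gene symbol, which held from 0.212 to 0.367% of the TPM of a library, were left out and rows with the same symbol were summed. Each table was fitted on its own in limma 3.58.1 (R 4.3.3), with trend, on log2(TPM + 1), over all groups of the table, for genes that reached a TPM of 1 in 3 or more libraries. P-values are two-sided and adjusted by Benjamini-Hochberg over all genes tested (13084 in the cultures and 17209, 18593 and 18151 in the water, diet and BT2 lungs), with calls at an adjusted p under 0.05. The fit was tested on simulated data. Replicate numbers were not used as pairs, since in no comparison did every same-numbered pair of libraries deviate together with a correlation over 0.1. Alternatives were other pseudocounts, other filters, median centring, array weights, the replicate block, the summed HSP70 pair, the compared groups alone, leaving out mitochondrial transcripts in the lungs, and leaving out each library in turn.

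The 8 genes and all gene and marker lists were chosen with earlier results of these data known. Named beyond the 8 are, per comparison described, the 3 called genes of the other HSP70 and HSP90 system list and the 2 of other lists with the largest absolute change, all heat shock factor and small heat shock protein genes listed, and the 5 genes most like the members' mean profile, of which 1 in the cultures is not reported here.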

Additional observations from a re-analysis of the deposited data

Results flagged for a closer look

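Within-group ranges were examined for the 8 genes in the 3 groups of 4 lungs of the diet experiment, 24 sets of values. Of these, 6 had a library far from the others by Dixon's criterion (the gap to the nearest library as a share of the range). For a single set, chance gives about 1 in 20. The sets are not independent, since the genes were measured in the same libraries and the HSP70 copies share stretches, so the count was not tested against that rate. Hspa1a stood apart in PBS replicate 3 at 48.9 TPM, in bleomycin replicate 4 at 40.2 TPM and in BCAA-free diet replicate 4 at 243 TPM. Hspa1b stood apart in bleomycin replicate 4 at 85.0 TPM and in BCAA-free diet replicate 4 at 503 TPM, and Dnajb1 in bleomycin replicate 4 at 83.2 TPM. Each was the highest library of its group.

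The response to TGF-β1 differed between BCAA-free and complete medium, by the test of the difference itself, in 5 of the 8 genes, where 47.6% of all genes were called, 29.2% higher and 18.4% lower. On the log2 scale the difference of responses was 1.67 for Hsp90aa1 and 0.76 for Hsph1, and it was -2.08 for Hspb1, -0.95 for Hspa1a and -0.65 for Hspa1b.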

How the results depend on the processing

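A total of 1542 results on single members came from settings other than leaving out 1 library. Of these, 1459 stayed on their side of the threshold, 28 lost a call, 52 gained one and 3 reversed. Of 3024 that left out 1 library, 2917 stayed, 74 lost a call, 30 gained one and 3 reversed. Direction was compared only where a gene was called in either fit, so a change of sign without a call counts as staying. The reversals were of Dnajb1 in TGF-β1 cells and came either without replicate 1 of the BCAA-free TGF-β1 group or with array weights; the cause was not tested beyond this. With array weights it differed by 0.17 for TGF-β1 in BCAA-free medium, -0.36 for BCAA added back and -0.23 for BCKA added back. Leaving out 1 library gave ranges of -0.38 to 0.21, -0.36 to 0.23 and -0.26 to 0.33. Median centring set the members' median at 0.20 for TGF-β1 in complete medium, 0.21 with BCAA added back, 0.27 with BCKA added back and -0.70 for bleomycin in the diet experiment. Summing the HSP70 pair set it at 0.046 for BCAA removal under PBS. The count of members called for TGF-β1 with BCAA added back was 5 with array weights or only the compared groups (3 to 5 leaving out 1 library), and with BCKA added back 5 with array weights or median centring. Array weights called 3 for BCAA removal under PBS, 2 for BCAA and 1 for BCKA added back under PBS, and 2 for BCAA in the drinking water (0 to 1 leaving out 1 library). For BT2 against bleomycin the count was 4 with a filter at TPM 5, array weights or no mitochondrial transcripts, 1 with the pair summed, and 2 to 4 leaving out 1 library. For BT2 with bleomycin against PBS it was 1 with no filter, 7 with only the compared groups, and 1 to 6 leaving out 1 library. With the replicate number as a block, calls were lost for Bag3 for bleomycin in the diet experiment (log2 difference 0.57, adjusted p = 0.067) and for the BCAA-free diet against PBS (log2 difference 0.55, adjusted p = 0.083), and for Hspb1 for BT2 with bleomycin against PBS (log2 difference -2.11, adjusted p = 0.0503). The block changed no other call, and same-numbered libraries share only a number. Depth is unknown, 3 or 4 libraries per group limit precision, and single values of Hspa1a and Hspa1b may depend on how shared reads were assigned.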

Other observations

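In the BT2 experiment bleomycin gave 1 of 10 clock genes called higher and 8 lower (median -1.89), where 17.3% of all genes were called higher and 13.3% lower, led by Ciart (log2 difference -2.83, adjusted p = 8.5e-04) and Dbp (log2 difference -2.79, adjusted p = 0.0037). BT2 gave 8 of 10 called higher and 1 lower (median 1.54), against 6.34% and 5.41% of all genes, led by Dbp (log2 difference 2.79, adjusted p = 0.015) and Nr1d1 (log2 difference 1.93, adjusted p = 0.0024), the gene of the repressor REV-ERBα. The BCAA-free diet gave 4 of 10 called higher and 1 lower (median 0.65), against 4.02% and 6.12% of all genes. Bleomycin gave 5 of 10 called higher and 3 lower (median 0.24) in the diet experiment, against 48.7% and 12.3%, and 1 higher and 2 lower (median -0.25) in the water experiment, against 14.8% and 7.08%. The part of these genes in the chaperone differences was not tested.

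Immediate early genes, which many stimuli raise within minutes, had 9 of 12 called higher and 0 lower with bleomycin in the diet experiment (median 1.25), where 48.7% of all genes were called higher and the median of all genes was 0.56, led by Ier3 (log2 difference 3.02, adjusted p = 1.9e-06) and Egr2 (log2 difference 2.62, adjusted p = 4.9e-07). In the BT2 experiment bleomycin gave 6 of 12 called higher and 0 lower (median 0.75), against 17.3% and 13.3% of all genes, led by Egr2 (log2 difference 1.70, adjusted p = 0.0017) and Fosb (log2 difference 1.49, adjusted p = 0.0049), where all 8 chaperone genes fell. In the water experiment it gave 1 of 12 called higher and 1 lower (median -0.08), against 14.8% and 7.08% of all genes.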
